A study of Mus musculus with 6 samples.

Results

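The noncoding genes whose transcripts carry small nucleolar RNAs (snoRNAs) or microRNAs were examined in 77-5 cells with and without induction of Rbfox1. Members were chosen by symbol: SNHG followed by a number, MIR names that end in HG, and GAS5, ZFAS1 and DANCR, which carry snoRNAs under other names. A gene also needed a summed expected count of at least 60 over the 6 samples. Of 58870 annotated genes, 31436 had a count, 84 matched the names, and 43 passed the minimum. These were 24 snoRNA hosts and 19 microRNA hosts, with 361 annotated isoforms. Just above the minimum lay MIR31HG with 75 counts and MIR497HG with 97.6, and just below it lay SNHG28 with 43.23. The 41 genes under the minimum included 20 that were listed at 0 in every sample, among them MIR100HG, MIR155HG, MIR205HG and SNHG18.

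The 77-5 line is 1 clone of T-REx-293, a human embryonic kidney line of the HEK293 family that expresses the tetracycline repressor, and it carries a mouse Ntrk2 (TrkB) minigene made from a bacterial artificial chromosome. Doxycycline induces its Rbfox1 transgene. The No Dox group was left untreated (n = 3), and the Dox group received doxycycline for 48 h (n = 3). The labels and the methods give the dose as 0.5 mg/ml, whereas figure legends of the study give micrograms per ml. The labels name mouse as the organism, but the deposited transcripts are human. No label says that replicates came from separate cultures, so p-values measure the spread between these samples, which may be technical. All samples shared the clone and its minigene, and the effect of doxycycline cannot be told apart from that of Rbfox1. Samples held 59822964 to 65774104 expected counts, of which the members took 0.149 to 0.153%. RBFOX1 was at 6.92 to 8.42 TPM (a level scaled for transcript length and sample total) in No Dox and 186.4 to 189.8 TPM in Dox, and transgene and endogenous reads were not separated. Of 8 HEK293 markers, KRT8, KRT18, VIM, NEFL, CDH2 and LIN28B were at 30.03 TPM or more in every sample, while PAX2 was at 2.03 to 2.77 and NEFM at 0.45 to 1.21. Of 10 markers of other cell types, COL1A1 was at 3.91 to 5.05 TPM, CDH1 at 1.11 to 1.44 and the others at 0.63 or less.

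A snoRNA host is transcribed and spliced like a messenger RNA, and the snoRNA is trimmed out of an excised intron. Box C/D snoRNAs guide methylation of ribosomal RNA and box H/ACA snoRNAs guide pseudouridylation. The spliced exons of many such hosts encode no protein, and several are degraded by nonsense-mediated decay, a translation-dependent pathway that removes transcripts with early stop codons. A microRNA host instead holds a hairpin, in an intron or an exon, that the nuclear enzyme DROSHA cuts out before DICER1 makes the mature microRNA. The libraries were made from polyadenylated RNA, so the values below describe host transcripts and not the small RNAs. Small RNA genes with a member as host were looked up, and 63 were present in the deposited values. Of these 63, 43 were at 0 in all samples and 2 had more than 60 counts in sum. Their annotated lengths ran from 69 to 275 bases, with a median of 89.5. Others looked up were absent from the deposited values, among them all the snoRNAs looked up for GAS5. In all, 458 snoRNA genes held 0.00069% of counts and 1843 microRNA genes held 2e-05%.

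To show which small RNAs some of the microRNA hosts called in the test below carry, mature sequences were taken from RefSeq. The sequences used are those of mouse (assembly GRCm38.p6), and human sequences were not used here. Capitals mark the seed, bases 2 to 8, which pairs with target messenger RNAs. MIR17HG carries a cluster of 6 microRNAs, and these are shown from the mouse locus on chromosome 14, plus strand:
miR-17-5p (chr14:115043684-115043706): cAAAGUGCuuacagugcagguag
miR-18a-5p (chr14:115043867-115043889): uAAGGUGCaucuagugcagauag
miR-19a-3p (chr14:115044048-115044070): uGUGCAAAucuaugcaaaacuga
miR-20a-5p (chr14:115044183-115044205): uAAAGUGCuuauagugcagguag
miR-19b-3p (chr14:115044358-115044380): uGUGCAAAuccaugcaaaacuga
miR-92a-3p (chr14:115044476-115044496): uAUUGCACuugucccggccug

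Within this cluster miR-17-5p and miR-20a-5p shared a seed, as did miR-19a-3p and miR-19b-3p, so the 6 sequences hold 4 different seeds. The remaining hosts shown each carry 1 microRNA named after them, and none of these seeds was shared with another sequence shown:
miR-34a-5p, of MIR34AHG (chr4:150068473-150068494, plus strand): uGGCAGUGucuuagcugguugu
miR-31-5p, of MIR31HG (chr4:88910614-88910635, minus strand): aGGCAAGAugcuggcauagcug
miR-22-3p, of MIR22HG (chr11:75463772-75463793, plus strand): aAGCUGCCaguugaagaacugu

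Levels of the host genes were then compared between Dox and No Dox. Of the 43 members, 11 were higher in Dox and 14 were lower, and 18 did not pass the test (edgeR quasi-likelihood test, adjusted p under 0.05). That is 25.6% higher and 32.6% lower, beside 24.9% and 26.5% of all 18264 genes tested (4543 and 4841 genes), so the share of members called was near that of other genes. With library size as the only scaling, the split of all genes was 5682 higher and 3753 lower, and that of the members 11 and 13. All 43 members passed the filter on low counts, MIR31HG only through its counts in Dox. Changes were small. Of 25 called members, 20 had an absolute log2 fold change under 0.5 and 1, the same MIR31HG, changed by more than 2-fold. When a change had to exceed 1.2-fold in the test itself, 2 of the 43 members were higher and 6 were lower. The higher were MIR34AHG and the sparsely counted MIR31HG, and the lower were SNHG4, SNHG9, SNHG21, MIR17HG, SNHG10 and DANCR. Of all 18264 genes, 1333 (7.30%) were higher and 1097 (6.01%) lower in that test. TPM ranges of the groups did not overlap for 8 of the 11 higher and 12 of the 14 lower members. Among all genes this held for 3816 of the 4543 higher and 3699 of the 4841 lower ones. Those were 20.9% and 20.3% of the 18264 genes tested.

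The classes differed in the direction of their calls, a difference that was not tested. Among the snoRNA hosts, 4 were higher and 12 lower, with a median log2 fold change of -0.15. Of the microRNA hosts, 7 were higher (36.8%), MIR31HG among them, and 2 lower (10.5%), with a median of 0.06. The shares of all genes tested were 24.9% higher and 26.5% lower, with a median of 0.00. The classes also differed in level: the snoRNA hosts summed to 3450.0 ± 55.0 TPM (SD, n = 3) in No Dox and the microRNA hosts to 79.3 ± 2.2 TPM. The snoRNA host sum, and the sum of all members below, include SNHG25, whose TPM is not interpreted. It was at 93.2, 4.54 and 5.31 TPM in No Dox and 21.9, 26.3 and 4.99 TPM in Dox. The direction of calls also varied with level, which was not tested either. Of 9 members at 100 TPM or more in a group, 4 were higher (44.4%) and 2 lower (22.2%). Of 13 members at 20 to 100 TPM, none was higher in Dox and 9 were lower (69.2%). These 13 include SNHG25, which was not called and was placed there by its uninterpreted TPM. Of 21 members under 20 TPM, 7 were higher (33.3%) and 3 lower (14.3%). Shares of all genes at these levels were not computed, so whether this variation is particular to the members cannot be said. The sum of all members was 3584.9, 3479.1 and 3524.0 TPM in the No Dox samples and 3669.6, 3695.3 and 3732.6 TPM in the Dox samples. These groups did not overlap, with a ratio of 1.05 and an exact two-sided permutation p of 0.1, the smallest that 3 samples against 3 allow. On counts the groups did overlap. The members took 0.1511, 0.1497 and 0.1514% of counts in No Dox and 0.1491, 0.1501 and 0.1532% in Dox, so the higher sum was seen in TPM only.

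**Figure D1:**
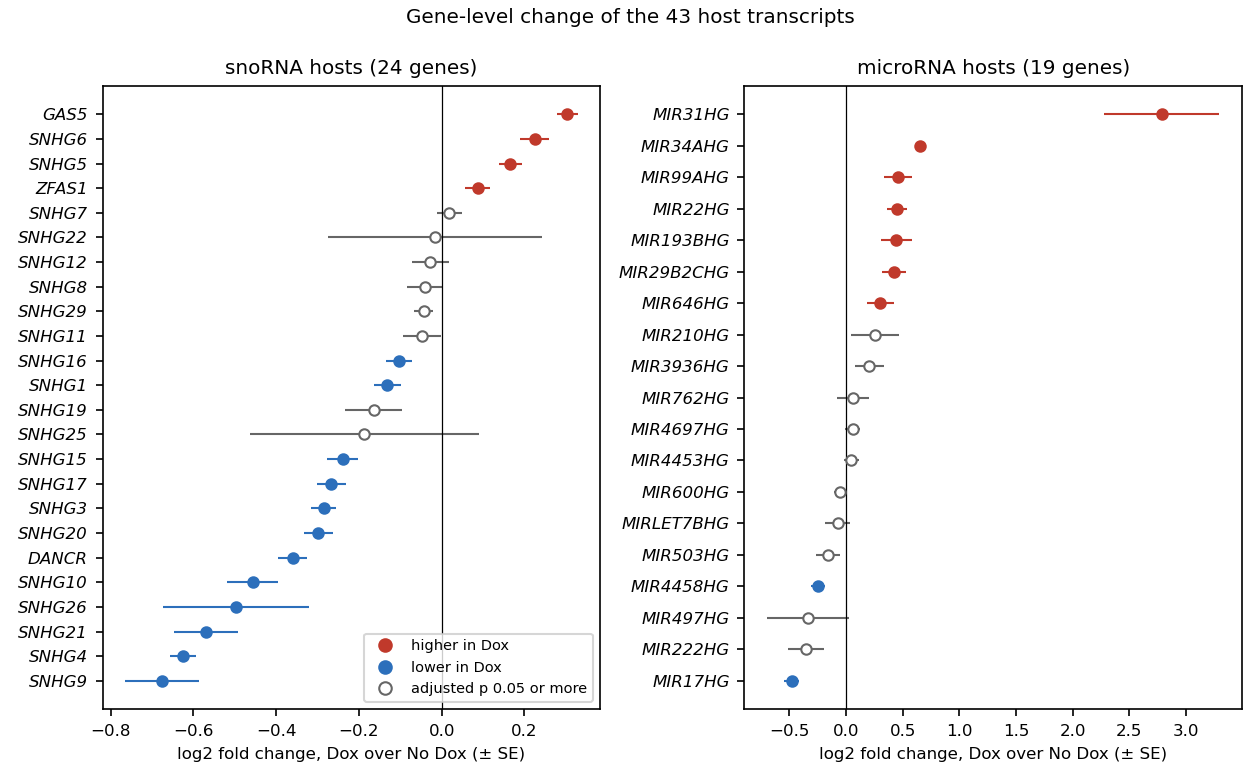
Log2 fold change (Dox over No Dox, x axis) of each snoRNA host (left) and microRNA host (right), with its SE from edgeR as a bar, on separate x scales. Filled points passed an adjusted p under 0.05 (red higher, blue lower) and open points did not. Among snoRNA hosts 4 points are red and 12 blue, and MIR31HG at 2.79 lies far from the other microRNA hosts.

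The 4 snoRNA hosts that rose were all among the most abundant members. GAS5 (ENSG00000234741.8), named for its accumulation in growth-arrested cells, carries box C/D snoRNAs in its introns and is a known target of nonsense-mediated decay. It was at 379.3, 377.6 and 386.2 TPM in the No Dox samples and 518.8, 512.9 and 533.6 TPM in the Dox samples. Every Dox sample lay above every No Dox sample. On counts, GAS5 rose by a log2 fold change of 0.30 ± 0.03 (SE, edgeR adjusted p = 6.26e-08), which is less than the log2 ratio of its mean TPM (0.45). SNHG5 (ENSG00000203875.11), host of the SNORD50 pair, was the most abundant member. Its level was 792.9, 797.4 and 793.2 TPM without doxycycline and 883.6, 917.9 and 939.2 TPM with it. The groups were apart, and the log2 fold change was 0.17 ± 0.03 (edgeR adjusted p = 0.000114).

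SNHG6 (ENSG00000245910.8), which carries SNORD87, showed the largest relative rise in TPM of the abundant hosts. It was at 141.7, 136.8 and 132.7 TPM in No Dox and 192.5, 194.2 and 185.3 TPM in Dox. All Dox values exceeded all No Dox values, with a log2 ratio of mean TPM of 0.48. On counts the log2 fold change was 0.23 ± 0.04 (edgeR adjusted p = 5.31e-05), and the isoforms behind that difference are described below. ZFAS1 (ENSG00000177410.12), host of the SNORD12 group and a neighbour of ZNFX1 on the opposite strand, was at 196.9, 202.0 and 203.4 TPM in No Dox and 213.6, 224.5 and 215.0 TPM in Dox. Its ranges did not overlap, but its log2 fold change was only 0.09 ± 0.03 (edgeR adjusted p = 0.0224). The call on ZFAS1 was lost without any 1 of the No Dox samples, without Dox replicate 2, with DESeq2 and with no filter, and its log2 fold change was 0.07 to 0.14 over all alternatives. ZNFX1 did not pass the test (log2 fold change -0.06, edgeR adjusted p = 0.185).

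The falls among snoRNA hosts were led by SNHG9 and SNHG4. SNHG9 (ENSG00000255198.4) holds SNORA78 and lies beside the ribosomal protein gene RPS2. It was at 72.7, 84.1 and 84.7 TPM in No Dox and 51.4, 54.9 and 48.0 TPM in Dox. The Dox values were all lower, with a log2 fold change of -0.68 ± 0.09 (edgeR adjusted p = 1.02e-05), whereas RPS2 did not pass the test (log2 fold change 0.03). SNHG4 (ENSG00000281398.4), which carries SNORA74A, was at 91.4, 89.9 and 94.8 TPM without and 61.4, 62.2 and 65.7 TPM with doxycycline. The groups were far apart relative to their spread, and SNHG4 fell by 0.63 ± 0.03 on the log2 scale (edgeR adjusted p = 1.33e-10). SNHG4 shares its locus with MATR3, which encodes an RNA-binding protein of the nuclear matrix and is listed under 2 gene identifiers. Both were higher in Dox, ENSG00000280987.4 at 45.3 ± 2.3 and 84.3 ± 2.4 TPM (log2 fold change 0.84) and ENSG00000015479.18 at 364.6 ± 14.0 and 458.3 ± 13.5 TPM (0.31). Reads from exons that such overlapping genes share are divided by a model, and its part in these opposite directions was not tested.

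SNHG21 and SNHG10 carry small Cajal body RNAs, relatives of snoRNAs that guide modification of spliceosomal RNAs. SNHG21 (ENSG00000250988.7), host of SCARNA15, was at 25.8, 23.4 and 22.8 TPM in No Dox and 17.4, 18.2 and 15.7 TPM in Dox. Its groups did not overlap, and it fell by 0.57 ± 0.08 on the log2 scale (edgeR adjusted p = 1.24e-05). SNHG10 (ENSG00000247092.6), host of SCARNA13, was at 22.9, 24.7 and 20.5 TPM in No Dox and 18.9, 17.6 and 17.0 TPM in Dox, again without overlap. It fell by 0.46 ± 0.06 on the log2 scale. Another host of this kind, SNHG20 with SCARNA16, went from 35.5 ± 0.35 to 29.0 ± 0.69 TPM and fell by 0.30. DANCR (ENSG00000226950.6) holds SNORA26, and its spliced RNA is known from studies of cell differentiation. It was at 139.4, 135.9 and 132.1 TPM in No Dox and 109.3, 106.6 and 113.7 TPM in Dox. All Dox samples were lower, with a log2 fold change of -0.36 ± 0.04 (edgeR adjusted p = 3.71e-07).

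Smaller falls were found in 5 further hosts of 20 TPM or more, SNHG3, SNHG17, SNHG15, SNHG1 and SNHG16. SNHG3, which carries the SNORA73 pair, went from 52.9 ± 0.87 to 43.7 ± 0.71 TPM (log2 fold change -0.28). RCC1, a chromatin-bound exchange factor for Ran that shares the locus of SNHG3, fell by the same amount (log2 fold change -0.28 ± 0.02), from 168.6 ± 0.44 to 141.1 ± 3.2 TPM. SNHG17, with the SNORA71 group, went from 88.8 ± 3.8 to 76.2 ± 3.5 TPM (log2 fold change -0.27), and SNHG15, with SNORA9, from 96.9 ± 3.4 to 85.0 ± 3.6 TPM (-0.24). SNHG1, which holds a run of box C/D snoRNAs, was at 173.1, 172.9 and 174.7 TPM in No Dox and 156.4, 161.1 and 170.2 TPM in Dox. Its Dox values spread widely but stayed below No Dox, and its log2 fold change was -0.13 ± 0.03 (edgeR adjusted p = 0.00291). SNHG16 fell by 0.10 on the log2 scale, from 82.2 ± 0.21 to 80.8 ± 1.1 TPM. Its call was lost without No Dox replicate 1, under library size scaling and with limma on log2(TPM + 1). SNHG26, at 2.61 ± 0.33 and 2.15 ± 0.35 TPM, fell by 0.50 on the log2 scale with overlapping TPM. SNHG26 lost the call without No Dox replicate 1, No Dox replicate 3 or Dox replicate 2, with DESeq2 and with limma on log2(TPM + 1).

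The remaining 8 snoRNA hosts did not pass the test. SNHG29, the second most abundant member, was at 589.2, 589.6 and 601.5 TPM in No Dox and 596.2, 580.1 and 595.1 TPM in Dox. These ranges overlapped, and the 95% interval of its log2 fold change (-0.09 to 0.00, unadjusted) was narrow, and the gene passed without Dox replicate 3 (log2 fold change -0.05, edgeR adjusted p = 0.0467). The partner on the opposite strand, LRRC75A, did not pass either (log2 fold change 0.01). SNHG7, SNHG8, SNHG11 and SNHG12 were at 109.5, 163.0, 26.0 and 48.1 TPM in No Dox on average, with log2 fold changes from -0.05 to 0.02. SNHG19 was at 78.48, 70.48 and 69.59 TPM in No Dox and 69.56, 64.42 and 68.3 TPM in Dox, ranges that were barely apart. Its log2 fold change was -0.16 (edgeR adjusted p = 0.057). The gene passed without No Dox replicate 3, with no filter and with the replicate number as a block. SNHG22 was at 2.11 ± 0.13 and 1.97 ± 0.17 TPM, with an interval of -0.53 to 0.49. SNHG25 gave 93.2, 4.54 and 5.31 TPM in No Dox and 21.9, 26.3 and 4.99 TPM in Dox, although its counts were 78.2 and 71.1 per group. The high values came from an isoform of 106 bases with an effective length of 1.2 bases, where a few reads give a large TPM, so its TPM is not interpreted.

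**Figure D2:**
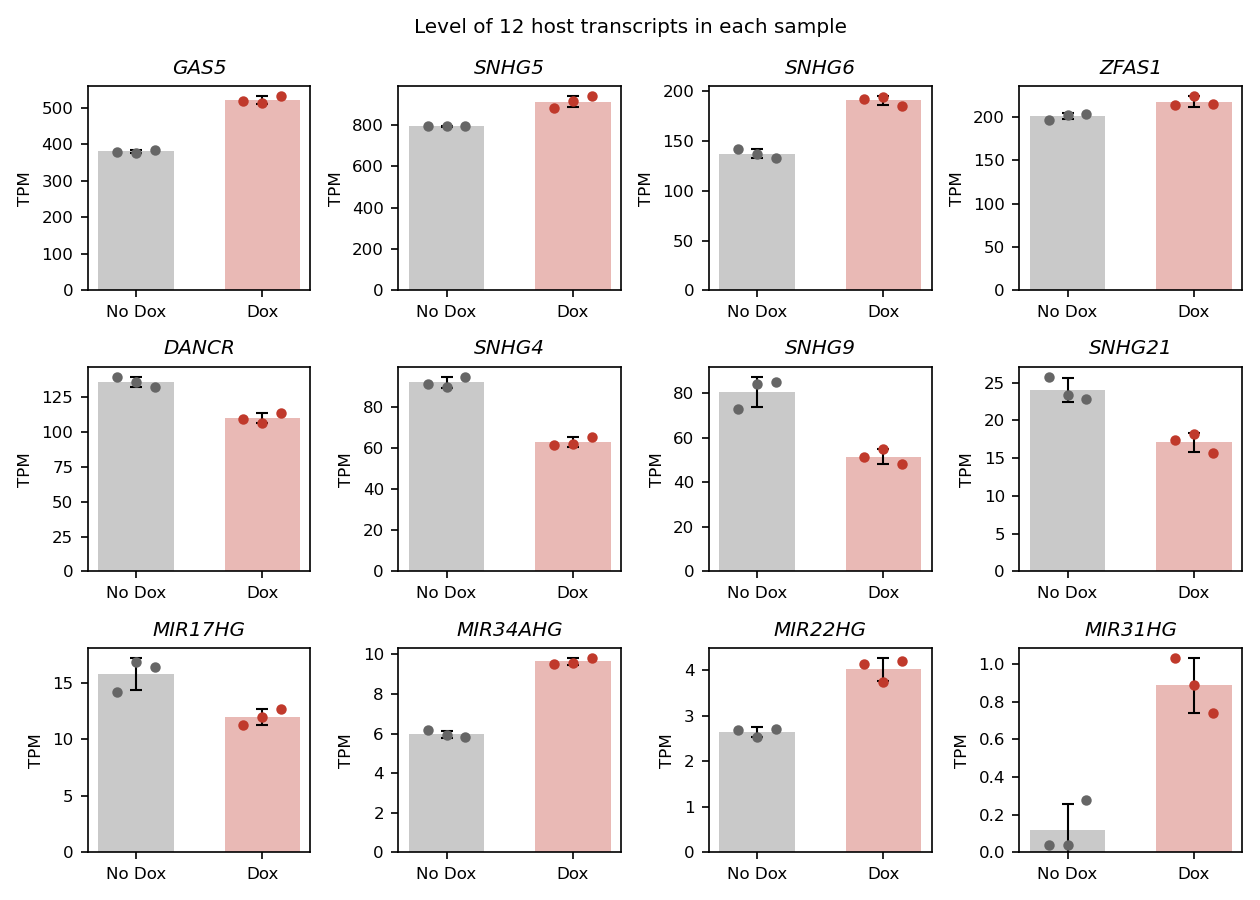
TPM (y axis, from 0, separate scales) of 12 host transcripts in each No Dox (grey) and Dox (red) sample as points, with the group mean as a bar and the SD as an error bar (n = 3). In each panel the points of the groups do not overlap. GAS5, SNHG5, SNHG6, ZFAS1, MIR34AHG, MIR22HG and MIR31HG are higher in Dox, and DANCR, SNHG4, SNHG9, SNHG21 and MIR17HG are lower.

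The microRNA hosts were low in level and more of them rose. MIR34AHG (ENSG00000228526.7) gives rise to miR-34a, which is known as a target of p53 that restrains the cell cycle. It was at 6.17, 5.91 and 5.83 TPM in No Dox and 9.52, 9.57 and 9.83 TPM in Dox. The spread within each group was small beside the gap, with a log2 fold change of 0.66 ± 0.04 (edgeR adjusted p = 2.38e-09) on 3181 and 5146 counts. MIR31HG (ENSG00000171889.3), host of miR-31, was near the limit of detection at 0.04, 0.04 and 0.28 TPM in No Dox and 1.03, 0.89 and 0.74 TPM in Dox. Summed counts were 9 in No Dox and 66 in Dox, a rate ratio of 7.38 with an exact 95% counting interval of 3.66 to 16.8. Reads are not independent molecules, so the interval covers counting error only. The rate ratio, its interval and the fitted log2 fold change of 2.79 ± 0.51 are given as a description and not as a test. The gene met the count minimum of the members and passed the filter only through the group where it was high. The log2 fold change was 4.26 without No Dox replicate 3, which held most of the No Dox counts, and 2.36 to 2.90 without any other 1 sample. MIR22HG (ENSG00000186594.14), host of miR-22, was at 2.69, 2.52 and 2.70 TPM without and 4.13, 3.73 and 4.19 TPM with doxycycline. These values did not overlap, and the log2 fold change was 0.45 ± 0.09 (edgeR adjusted p = 0.000559).

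A further 4 microRNA hosts were called higher at low levels. MIR193BHG rose by 0.44 on the log2 scale, from 0.90 ± 0.12 to 1.46 ± 0.38 TPM. Its call was lost without No Dox replicate 1 and with DESeq2 (adjusted p = 0.0505). MIR29B2CHG, a transcript of 12971.6 bases on average in No Dox that carries members of the miR-29 family, rose by 0.43 on counts (413 and 570 counts), but its TPM of 0.25 ± 0.05 and 0.30 ± 0.03 overlapped. MIR99AHG, host of miR-99a, let-7c and miR-125b, rose by 0.46 on counts with overlapping TPM (3.56 ± 0.86 and 4.12 ± 0.27). MIR646HG rose by 0.30 (edgeR adjusted p = 0.0475), at 2.35 ± 0.58 and 3.40 ± 0.55 TPM, and this call was lost in 8 of 13 alternatives. Among them were the fits without No Dox replicate 1, No Dox replicate 3, Dox replicate 1 or Dox replicate 2.

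Only 2 microRNA hosts were called lower. MIR17HG (ENSG00000215417.12), the host of the cluster printed above and a known target of MYC, was at 14.2, 16.8 and 16.4 TPM in No Dox and 11.3, 11.9 and 12.7 TPM in Dox. The lowest No Dox sample lay above the highest Dox sample, and the log2 fold change was -0.48 ± 0.06 (edgeR adjusted p = 8.46e-06) on 2997 and 2208 counts. MIR4458HG fell by 0.25 on the log2 scale, from 11.7 ± 0.56 to 10.2 ± 0.77 TPM, with overlapping TPM. The 10 others did not pass: MIR222HG, MIR497HG, MIR503HG, MIR600HG, MIR210HG, MIR762HG, MIR3936HG, MIR4453HG, MIR4697HG and MIRLET7BHG. Their mean levels in No Dox ran from 0.40 TPM for MIR497HG to 9.15 TPM for MIR503HG, and their log2 fold changes from -0.35 for MIR222HG to 0.26 for MIR210HG. MIRLET7BHG was at 3.18, 3.51 and 4.07 TPM in No Dox and 1.90, 3.01 and 2.64 TPM in Dox, without overlap. Its log2 ratio of mean TPM was -0.51 against a log2 fold change of -0.07 on counts, and it passed with limma on log2(TPM + 1) (adjusted p = 0.0464). Unadjusted 95% intervals of the log2 fold change ran from -0.67 to -0.04 for MIR222HG, host of miR-221 and miR-222, and from -1.04 to 0.37 for MIR497HG.

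Isoforms were compared next, since the study used these libraries to ask how Rbfox1 alters isoform expression. Of the 361 member isoforms, 230 passed the filter. By limma-voom, 11 were higher (4.78%) and 14 lower (6.09%), beside 6.19% and 6.44% of the 72438 isoforms tested in all genes. The calls fell in 17 members, and in 2 of them, GAS5 and SNHG29, isoforms were called in both directions. The most abundant isoform called was SNHG5-202, which went from 728.7 ± 4.5 to 829.3 ± 26.3 TPM (log2 fold change 0.16, limma adjusted p = 0.0242). Usage compares the change of each isoform with that of the gene's other isoforms, and it was called for 8 of the 33 members with 2 or more tested isoforms (24.2%), beside 27.5% of 12328 genes by limma diffSplice. These were GAS5, SNHG4, SNHG5, SNHG6, SNHG21, MIR22HG, MIR646HG and MIRLET7BHG. The diffSplice test pools the variance of a gene's isoforms. With edgeR's diffSpliceDGE, 10.0% of 12307 genes were called, and of the members only GAS5. GAS5 and SNHG6 were called by diffSplice whichever 1 sample was left out, but GAS5 was not called when the test was limited to isoforms of at least 10% of their gene.

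In SNHG6 the change lay between isoforms of different length. SNHG6-205, a short isoform of 302 bases, made up 30.7, 30.8 and 27.7% of the gene in No Dox and 44.8, 45.8 and 44.2% in Dox. The groups were about 15.2 points apart, and the level of this isoform went from 40.8 ± 3.6 to 85.7 ± 3.6 TPM (log2 fold change 1.04 ± 0.11, limma adjusted p = 0.00173). SNHG6-203, of 638 bases, was the main isoform and went the other way in share, at 58.4, 56.9 and 59.3% in No Dox and 48.7, 47.4 and 48.0% in Dox. In level this isoform had 79.8 ± 2.6 TPM without and 91.6 ± 2.4 TPM with doxycycline (limma adjusted p = 0.0618), so the lower share came with no fall in level. SNHG6-204, of 560 bases, went from 10.7 ± 1.2 to 6.01 ± 0.64% of the gene. The mean transcript length of SNHG6, weighted by abundance, fell from 529.9 ± 5.3 to 482.4 ± 2.4 bases (-8.98%). The effective length of SNHG6-205, by which TPM divides its 690.6 and 1431.1 counts, was 128.0 and 126.2 bases on average, so each of its reads adds more to TPM than a read of a longer isoform.

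GAS5, with 31 annotated isoforms and 25 tested, shifted in several of them. GAS5-221, of 632 bases, was the main isoform at 37.1, 38.0 and 36.5% in No Dox and 42.8, 42.4 and 42.0% in Dox. It was higher in share in every Dox sample, and its level rose from 141.7 ± 1.6 to 221.3 ± 3.3 TPM (log2 fold change 0.63 ± 0.03, limma adjusted p = 0.000118). GAS5-218, of 565 bases, rose from 67.4 ± 1.5 to 103.0 ± 4.3 TPM, and GAS5-202, of 413 bases, from 4.91 ± 0.38 to 11.4 ± 1.4 TPM. In contrast, GAS5-230, a long isoform of 3145 bases, was at 2.40, 2.31 and 2.44% in No Dox and 1.33, 1.37 and 1.45% in Dox. It fell from 9.08 ± 0.36 to 7.22 ± 0.46 TPM (log2 fold change -0.34, limma adjusted p = 0.0239) and still held 3557.1 and 2837.0 counts because of its length. GAS5-217, of 424 bases, went from 3.14 ± 0.10 to 1.66 ± 0.20% of the gene. The abundance-weighted length of GAS5 was 747.6 ± 1.9 bases in No Dox and 706.2 ± 3.5 in Dox (-5.54%), without overlap.

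**Figure D3:**
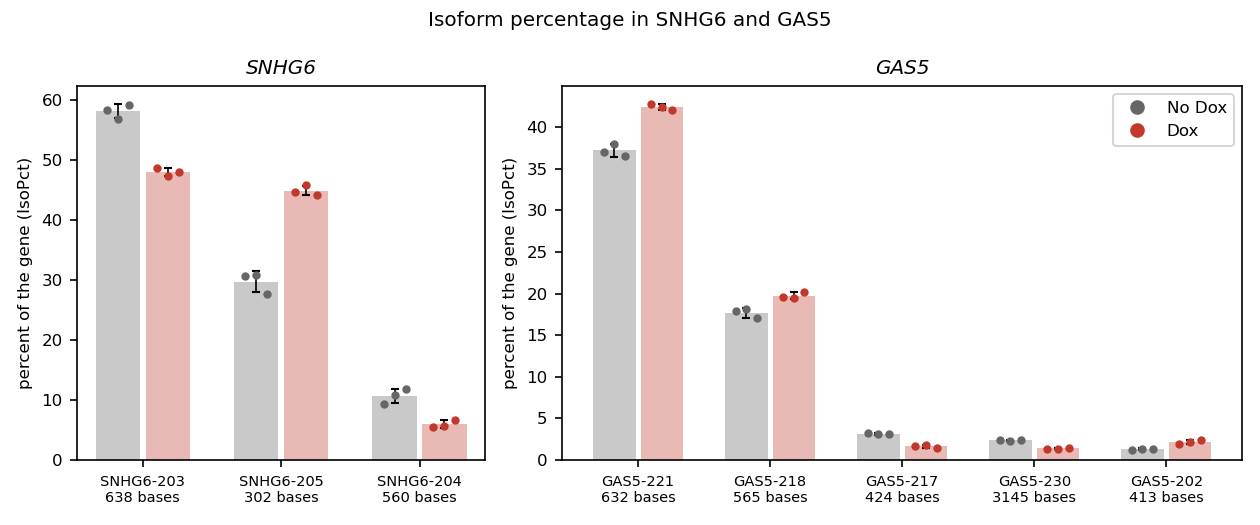
Percent of the gene's abundance assigned to each isoform (y axis, from 0) in No Dox (grey) and Dox (red) samples, as points with the group mean (bar) and SD (error bar, n = 3), for isoforms of SNHG6 (left) and GAS5 (right). The length of each isoform is under its name. SNHG6-205 rises from about 29.7 to 44.9% while SNHG6-203 goes from 58.2 to 48.0%, and GAS5-221 rises from 37.2 to 42.4%.

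In the other members called for usage the shifts were smaller or the counts lower. SNHG4-202, the main isoform of SNHG4 at 2383 bases, fell with the gene from 42.1 ± 1.1 to 27.0 ± 0.70 TPM (log2 fold change -0.65). SNHG4-209 fell less (-0.35), so its share rose from 17.4 ± 0.59 to 20.1 ± 0.44%, and the share of SNHG4-208 went from 13.2 ± 0.15 to 17.0 ± 1.4%. The minor isoform SNHG5-206 rose from 11.1 ± 1.0 to 18.6 ± 0.92 TPM but remained a small part of SNHG5, at 1.40 ± 0.13 and 2.04 ± 0.06%. MIR22HG-201, of 1383 bases, went from 13.6, 2.93 and 12.1% of the gene to 20.6, 24.3 and 20.3%, on 41.1 and 138.4 counts. The 4560-base MIRLET7BHG-201, of the host of let-7a and let-7b, went from 21.5, 24.2 and 21.9% to 46.7, 32.4 and 34.0%. SNHG21-201 and MIR646HG-207 had overlapping shares, at 9.34 ± 5.28 and 17.4 ± 5.3% and at 63.4 ± 9.1 and 46.3 ± 6.2%. The largest change in mean share of all was that of MIR600HG-201 and MIR600HG-202, of 5984 and 5977 bases. MIR600HG-201 took 10.8, 100 and 4.85% of the gene in No Dox and 94.8, 100 and 92.7% in Dox. These isoforms differ by 7 bases in length, and shares were far apart between the No Dox replicates. The usage test did not call the gene with all samples (diffSplice adjusted p = 0.532), but it did without No Dox replicate 2 and with the replicate number as a block.

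Transcript length could vary in the 39 members with more than 1 isoform above 0, and its abundance-weighted mean did not overlap between the groups in 10 of them. Without overlap, it was shorter in Dox in 20.5% and longer in 5.13%, beside 11.2% and 12.5% of 14704 genes. The 8 members with a shorter mean were GAS5, SNHG6, SNHG4, SNHG11, SNHG26, MIR17HG, MIR22HG and MIR3936HG. The mean was longer in SNHG5, by 0.45%, and in MIRLET7BHG, from 1610.7 ± 83.5 to 2214.0 ± 303.8 bases. For DANCR the length was 882.1 ± 5.6 and 875.2 ± 3.9 bases with overlap, so that its fall in level came with no detectable change of length.

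**Figure D4:**
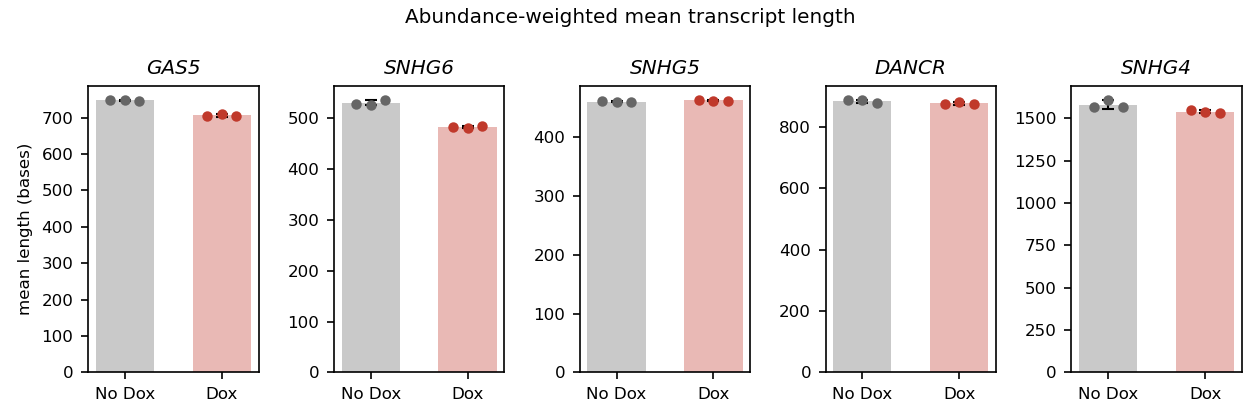
Abundance-weighted mean transcript length in bases (y axis, from 0, separate scales) of 5 hosts in No Dox (grey) and Dox (red) samples, as points with the group mean (bar) and SD (error bar, n = 3). SNHG6 goes from 529.9 to 482.4 and GAS5 from 747.6 to 706.2 bases, and the points of DANCR overlap.

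The proteins that act on these small RNAs were examined as lists, which were chosen with earlier results of these data known. Shares of all genes at the levels of the listed genes were not computed, here or for the lists below. Whether the share of a list is particular to it therefore cannot be said. The proteins of the mature snoRNA particles were mostly lower in Dox. Of 4 box C/D proteins 3 fell, among them FBL, the fibrillarin methyltransferase, from 1110.6 ± 4.4 to 888.4 ± 11.9 TPM (log2 fold change -0.37). NOP56 and SNU13 fell by 0.29 and 0.28 on the log2 scale, and NOP58 did not pass (log2 fold change -0.08, edgeR adjusted p = 0.0735). All 4 box H/ACA proteins fell, DKC1, the pseudouridine synthase dyskerin, from 178.5 ± 2.1 to 153.2 ± 1.2 TPM, NHP2 by 0.28, GAR1 by 0.22 and NOP10 by 0.20 on the log2 scale. Of 10 factors that assemble these particles, 5 fell (50%) and 2 rose (20%), beside 26.5% and 24.9% of all genes. NAF1, which is replaced by GAR1 during maturation, fell from 21.8 ± 0.98 to 16.8 ± 0.76 TPM (log2 fold change -0.42). The ATPases RUVBL2 and RUVBL1 fell by 0.33 and 0.24, and SHQ1, an early chaperone of dyskerin, rose by 0.23 on counts with overlapping TPM.

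The protein-coding genes that carry snoRNAs went mainly down as well. Of 25 tested, 17 fell (68.0%, beside 26.5% of all genes) and 3 rose, with a median log2 fold change of -0.15. These genes were abundant, and falls as small as that of TCP1 (log2 fold change -0.07) were called. The share of all genes includes sparsely counted ones. EEF1B2, a translation elongation factor subunit, fell from 861.6 ± 14.3 to 629.4 ± 16.8 TPM (log2 fold change -0.48). PPAN, a ribosome biogenesis gene, fell by 0.46, the mitochondrial phosphate carrier gene SLC25A3 by 0.37 and NOP56 by 0.29 on the log2 scale. NOP56, NOP58 and DKC1 are in this list and also among the particle proteins. The 3 that rose, HSPA8, IPO7 and TPT1, did so by 0.09 to 0.17.

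Genes of the microRNA pathway were called in both directions. Of 14 tested genes for processing and effector proteins, 5 rose and 5 fell (35.7% each, beside 24.9% and 26.5% of all genes). AGO4 rose from 8.73 ± 0.26 to 10.7 ± 0.72 TPM (log2 fold change 0.26), and AGO3 rose by 0.31 on counts with overlapping TPM. TARBP2, a partner of DICER1, fell from 63.3 ± 2.3 to 53.5 ± 1.7 TPM (log2 fold change -0.26), and XPO5, which exports microRNA precursors from the nucleus, fell by 0.23 on the log2 scale. DROSHA and DICER1 did not pass (log2 fold changes 0.06 and -0.05, edgeR adjusted p = 0.0555 and 0.152). Of 27 protein-coding microRNA hosts, 8 rose (29.6%) and 9 fell (33.3%), shares near those of all genes. PPARGC1B, host of miR-378a, fell from 8.25 ± 0.09 to 5.54 ± 0.22 TPM (log2 fold change -0.59). SMC4, host of miR-15b and miR-16-2, rose from 87.6 ± 1.5 to 116.7 ± 1.3 TPM (log2 fold change 0.40), LPP rose by 0.40, and PANK1, host of miR-107, rose by 0.35.

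Other noncoding hosts with names outside the rule were also read. Of 12 listed in the files, 7 were tested, 2 rose and 2 fell (28.6% each), shares near those of all genes. FTX, host of several X-linked microRNAs, rose from 6.44 ± 1.19 to 10.7 ± 0.66 TPM (log2 fold change 0.50), and C6orf48, a snoRNA host, rose by 0.17. DLEU2, the host of miR-15a and miR-16-1, fell from 21.8 ± 0.76 to 17.5 ± 1.7 TPM (log2 fold change -0.30), and MIR4435-2HG fell by 0.21 on the log2 scale. Thus SMC4, host of miR-15b and miR-16-2, and DLEU2, host of miR-15a and miR-16-1, moved in opposite directions, SMC4 upward and DLEU2 downward.

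Since several snoRNA hosts are degraded by nonsense-mediated decay, the factors of that pathway were read beside them. Of 15 factors, 9 fell (60%, beside 26.5% of all genes) and 3 rose (20%, beside 24.9%). UPF3B rose from 42.2 ± 3.0 to 61.2 ± 1.4 TPM (log2 fold change 0.51). MAGOH and EIF4A3, which encode subunits of the exon junction complex, fell by 0.31 and 0.20, and UPF1, the central helicase, fell from 46.2 ± 0.45 to 41.5 ± 2.2 TPM (log2 fold change -0.21). Whether these levels have a part in the changes of the hosts was not tested.

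**Figure D5:**
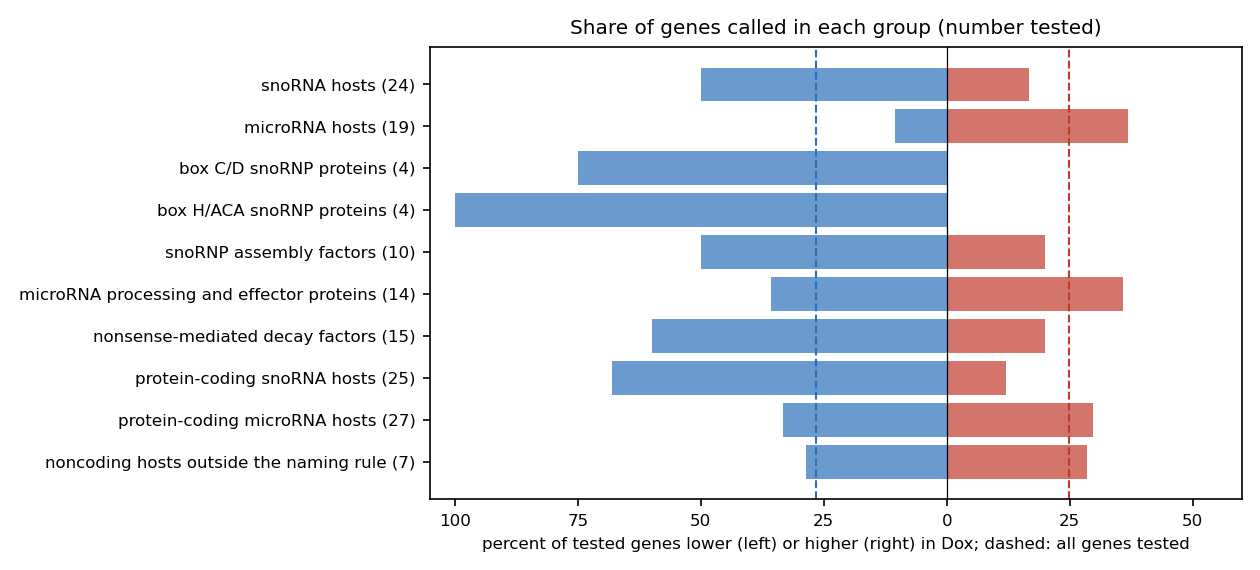
Percent of tested genes (x axis) that were lower (blue, left) or higher (red, right) in Dox by edgeR in each group of hosts or proteins, with the number tested in parentheses. Dashed lines give the same share over all genes tested (26.5% lower and 24.9% higher). The blue bars of all groups but the microRNA hosts reach past their dashed line. They do so by little for coding microRNA hosts (33.3%) and noncoding hosts outside the naming rule (28.6%). Shares at matched levels were not computed.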

How the data were processed

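Per the labels and the study's methods, the authors made stranded mRNA libraries, trimmed paired reads with cutadapt, aligned them to GRCh38 with STAR and ran RSEM. Not given in the sources used here were tool versions, the annotation release and the strand setting of RSEM. The deposited expected counts are RSEM estimates of fragments per isoform, the deposited TPM values are scaled for effective length and sample total, and the deposited percent of the gene is RSEM's share for each isoform. RSEM divides reads among isoforms and overlapping genes, so such values are model estimates. Human coordinates are left out, since no human annotation was used.

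Expected counts were summed per gene, rounded and tested with edgeR 4.0.16 (glmQLFit, glmQLFTest) after TMM and filterByExpr (minimum count 10), all 6 samples in 1 fit. The common biological coefficient of variation was 2.87%. The isoform test was limma-voom (limma 3.58.1) and the usage test was limma diffSplice with Simes p-values. Tests were two-sided, with Benjamini-Hochberg adjustment over all features and a threshold of 0.05. Scripts were tested on simulated data. R was 4.3.3, and sums and permutations used pandas 2.3.3 and scipy 1.17.1. Intervals on counts cover counting error only.

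The members and lists were chosen with earlier results of these data known. Named with values were called members with an absolute log2 fold change of 0.5 or more and no TPM overlap, all members of 20 TPM or more, members called for usage, and up to 4 called genes of each list at 5 TPM or more. Other members, neighbours and markers were named to account for all 43. Alternatives were DESeq2 1.42.0, RLE factors, library size only, no filter, limma on log2(TPM + 1), a 1.2-fold minimum, the replicate number as a block, diffSpliceDGE and other usage rules, and leaving out each sample in turn.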

Additional observations from a re-analysis of the deposited data

How the results depend on the processing

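Over the settings of the single members, 494 values kept their direction and side of the threshold, 43 fell short of it and 5 newly passed it. A further 17 changed sign or became 0, all in members that did not pass. The value of 0 was that of SNHG22 without Dox replicate 3. The 1.2-fold minimum is 1 of these settings. It keeps the fold changes of the main fit under a stricter test, so it could only lose calls. With library size only, log2 fold changes became 0.0313 for SNHG22, 0.0201 for SNHG12, 0.0074 for SNHG8 and 0.0039 for SNHG29. With limma on log2(TPM + 1) they became 0.0252 for SNHG12, 0.038 for SNHG8, 0.0414 for SNHG11 and 0.0624 for SNHG25. Leaving out 1 sample gave -0.0948 to 0.179 for MIR762HG, -0.0056 to 0.1045 for MIR4453HG, -0.133 to 0.0836 for SNHG22, -0.07 to 0.0096 for SNHG12 and -0.0682 to 0.0046 for SNHG8. With a 1.2-fold minimum, 2 members were higher, 6 were lower and 2430 genes changed. Leaving out 1 sample gave 6 to 8 member isoforms higher (11 with all), 7 to 13 lower (14 with all) and 4 to 6 members with changed usage (8 with all). Without No Dox replicate 1 these were 6, 9 and 4, without No Dox replicate 3 the higher isoforms were 6 and usage calls 4, and without No Dox replicate 2 the lower isoforms were 9. Without Dox replicate 1 they were 7, 7 and 5, and without Dox replicate 2 they were 7, 9 and 5. Fewer samples enter these fits. DiffSpliceDGE called usage in 1 member, and a change of at least 10 points left 2 (SNHG6 and MIR646HG). The causes of these differences were not tested. DESeq2 gave 8 members higher and 13 lower. With the replicate block, 11 members were higher and 15 lower, 9805 genes changed, 9 and 12 isoforms were called, and usage changed in 6 members. Deviations of samples with the same number correlated by 0.04, 0.03 and 0.06, and those of samples with different numbers by -0.038 to -0.002. Each sample correlated best with its own number, a hint from the data and not from the design. No label describes a pairing, so whether samples of the same number were paired cannot be said.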
